A study of Mus musculus with 6 samples.

Results

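The core circadian clock was examined as 10 genes of the mouse habenula, found in the deposited table by gene symbol among 55359 genes. They are the activators Clock, Npas2 and Arntl, the repressors Per1, Per2, Per3, Cry1, Cry2 and Ciart, and the nuclear receptor Nr1d1, and each matched 1 gene. RNA was sequenced from the habenula, a small epithalamic region, in 3 libraries labelled Tet2 cKO (a conditional knockout of Tet2, whose product oxidises methylated cytosine) and 3 WT libraries. All 6 came from C57BL/6 mice aged 2 months. The driver of the deletion, the hour of the day at which tissue was taken, the light cycle, the sex, and whether a library holds 1 animal or several do not appear in the sources used here. P-values therefore measure the spread between these libraries, which may be technical.

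In the mammalian clock, a dimer of BMAL1 (the product of Arntl) with CLOCK or its relative NPAS2 binds E-boxes and switches on the Per and Cry genes, whose proteins then return to the nucleus and inhibit that dimer. Ciart, also called Chrono, encodes a further repressor of the dimer. Nr1d1 encodes REV-ERB alpha, which represses Arntl by competing with ROR receptors at their shared element, so that in cycling tissue Arntl is high when Nr1d1 is low. Per1 and Per2 are also acute genes that cAMP signalling and glucocorticoids can induce. The levels of most clock mRNAs depend on the time of day, and clock genes cycle in the rodent habenula.

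The libraries held 16089676 to 17917987 counts. Tet2 itself stood at 4.47, 4.02 and 3.96 FPKM (counts scaled to exonic length and library size) under the Tet2 cKO label, against 3.45, 3.46 and 3.71 FPKM in WT, so its level was not lower under that label. The count spans the whole gene, including exons outside any deletion, and neither shows a loss nor speaks to the label. Of the habenula neuron markers, 9 of 9 were detected, with Gpr151, an orphan receptor of these neurons, at 50.3 to 71.7 FPKM under the Tet2 cKO label and 37.5 to 81.02 FPKM in WT. All 7 thalamus neuron markers were detected too, with summed levels of 399 to 442 FPKM under the Tet2 cKO label and 411 to 431 FPKM in WT. The share of RNA from tissue beside the habenula was not tested. WT replicate 3 stood apart from the other libraries. It held the lowest normalised level of 27.2% of the tested genes and the highest level of 27.1%, more than any other library in both, and was lowest for 8 of the 9 habenula markers. Each clock gene that it moved is therefore given with and without it.

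RefSeq promoter windows (GRCm38.p6, 250 bases before to 50 after a transcript start) were used for 9 of the 10 genes, all but Per2. The 5 windows below belong to the genes with the largest shifts, up or down, between WT replicate 3 and the other WT libraries. Capitals mark the matches to the motifs searched on both strands, which were the E-box CACGTG, its variant CACGTT, the D-box TTANGTAA (bound by DBP, TEF, HLF and NFIL3), the ROR element TAGGTCA, its variant TGGGTCA, and the cAMP response element core TGACGT. No match of one motif overlapped a match of another in these windows. They are Ciart (chr3:95882179-95882478, minus strand), the upstream start of Per1 (chr11:69098699-69098998, plus strand), Nr1d1 (chr11:98775328-98775627, minus strand), Per3 (chr4:151044616-151044915, minus strand) and the downstream start of Arntl (chr7:113207261-113207560, plus strand), each written 5′ to 3′.
Ciart: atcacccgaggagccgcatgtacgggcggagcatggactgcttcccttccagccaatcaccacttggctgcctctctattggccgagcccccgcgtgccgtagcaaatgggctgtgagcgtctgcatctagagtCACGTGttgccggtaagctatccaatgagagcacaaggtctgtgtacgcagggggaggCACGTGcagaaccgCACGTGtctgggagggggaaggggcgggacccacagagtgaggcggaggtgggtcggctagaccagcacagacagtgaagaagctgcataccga
Per1: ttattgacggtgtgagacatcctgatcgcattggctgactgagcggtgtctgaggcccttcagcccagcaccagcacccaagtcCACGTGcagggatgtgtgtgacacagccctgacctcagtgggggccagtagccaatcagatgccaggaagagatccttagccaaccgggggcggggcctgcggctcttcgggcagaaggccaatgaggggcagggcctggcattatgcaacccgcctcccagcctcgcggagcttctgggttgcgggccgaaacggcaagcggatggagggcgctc
Nr1d1: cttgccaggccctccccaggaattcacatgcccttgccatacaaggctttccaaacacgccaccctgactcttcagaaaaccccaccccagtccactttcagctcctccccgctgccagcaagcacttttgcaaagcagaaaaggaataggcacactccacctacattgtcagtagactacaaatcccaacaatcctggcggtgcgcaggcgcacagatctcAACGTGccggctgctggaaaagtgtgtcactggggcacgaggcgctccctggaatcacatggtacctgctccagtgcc
Per3: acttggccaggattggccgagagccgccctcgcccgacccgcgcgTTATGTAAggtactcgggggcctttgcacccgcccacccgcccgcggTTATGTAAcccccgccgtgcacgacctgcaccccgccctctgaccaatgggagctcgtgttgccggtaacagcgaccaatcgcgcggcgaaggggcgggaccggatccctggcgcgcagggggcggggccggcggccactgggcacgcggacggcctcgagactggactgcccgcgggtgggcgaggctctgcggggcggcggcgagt
Arntl: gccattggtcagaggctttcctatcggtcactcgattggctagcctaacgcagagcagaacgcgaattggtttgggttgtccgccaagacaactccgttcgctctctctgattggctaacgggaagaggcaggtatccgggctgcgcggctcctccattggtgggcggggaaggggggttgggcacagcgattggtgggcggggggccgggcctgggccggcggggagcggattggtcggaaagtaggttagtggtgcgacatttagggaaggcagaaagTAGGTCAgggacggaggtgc

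Ciart held 3 E-boxes, beginning 116, 58 and 44 bases before its start. Of 32851 promoter windows of this length, 7.15% held at least 1 E-box and 29 windows (0.0883%) held at least 3. Per1 held 1 E-box in its upstream window and the cAMP element core in its downstream window, a motif found in 7.51% of windows. Cry1 held 1 E-box and 1 E-box variant. Nr1d1 and Cry2 held the E-box variant alone, a motif found in 4.68% of windows. Per3 held 2 D-boxes and no E-box, and 2.32% of windows held a D-box. The downstream window of Arntl held the ROR element, as did 2.61% of windows. The windows of Clock and Npas2 held none of the 6 motifs. A match describes these letters and is not a shown binding site.

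**Figure D1:**
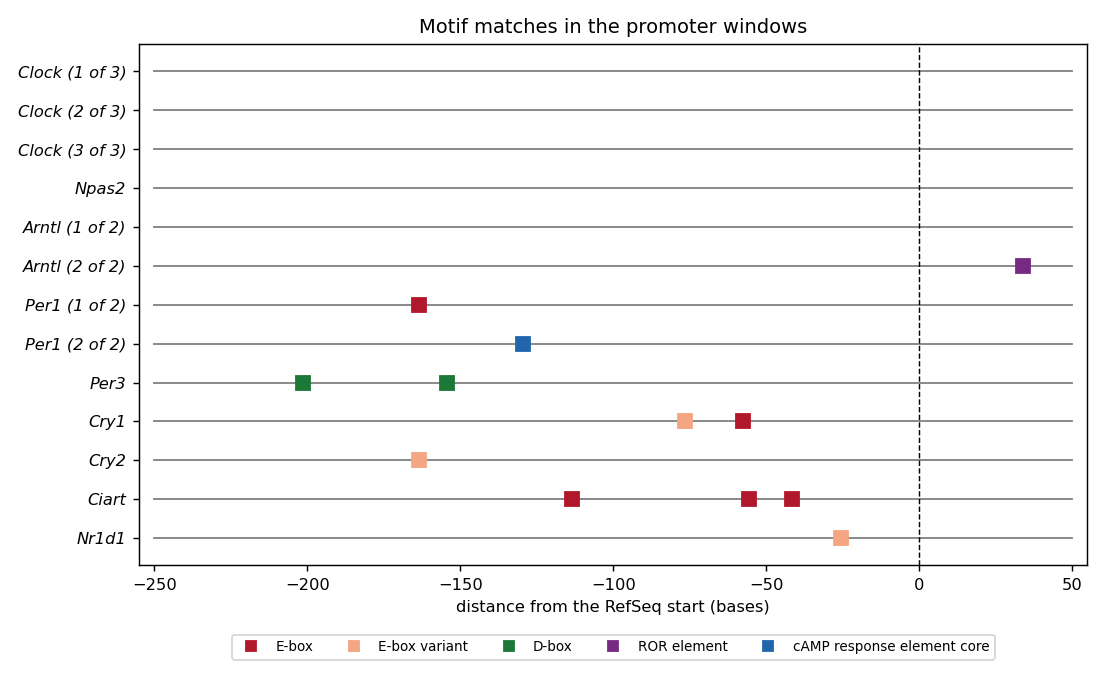
Positions of motif matches in the promoter windows of 9 clock genes, with the distance from the RefSeq start in bases on the x axis and 1 line per window (genes with several starts have several lines). The 3 E-boxes of Ciart lie within 116 bases of its start, and Per3 holds 2 D-boxes.

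All 10 genes were counted in every library, with 258 counts (Ciart, WT replicate 3) to 2168 counts (Per1, Tet2 cKO replicate 2), for which counting error alone is 6.23% and 2.15%. Nr1d1 had the highest level per length under both labels, at 30.7 ± 2.02 FPKM under the Tet2 cKO label and 26.5 ± 7.74 FPKM in WT (SD, n = 3 each). Under the Tet2 cKO label the order of mean FPKM was Nr1d1, Per1, Cry2, Ciart, Cry1, Clock, Per3, Per2, Arntl and Npas2. Only Per3 and Per2, and Arntl and Npas2, were neighbours there whose ranges over libraries overlapped. In WT the order was Nr1d1, Cry2, Per1, Ciart, Cry1, Clock, Per3, Per2, Npas2 and Arntl. Only Per1 and Ciart, and Per2 and Npas2, were neighbours with separate ranges in WT, so most of the WT order is within the spread. The activators Arntl and Npas2 were the lowest of the 10 in both groups.

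**Figure D2:**
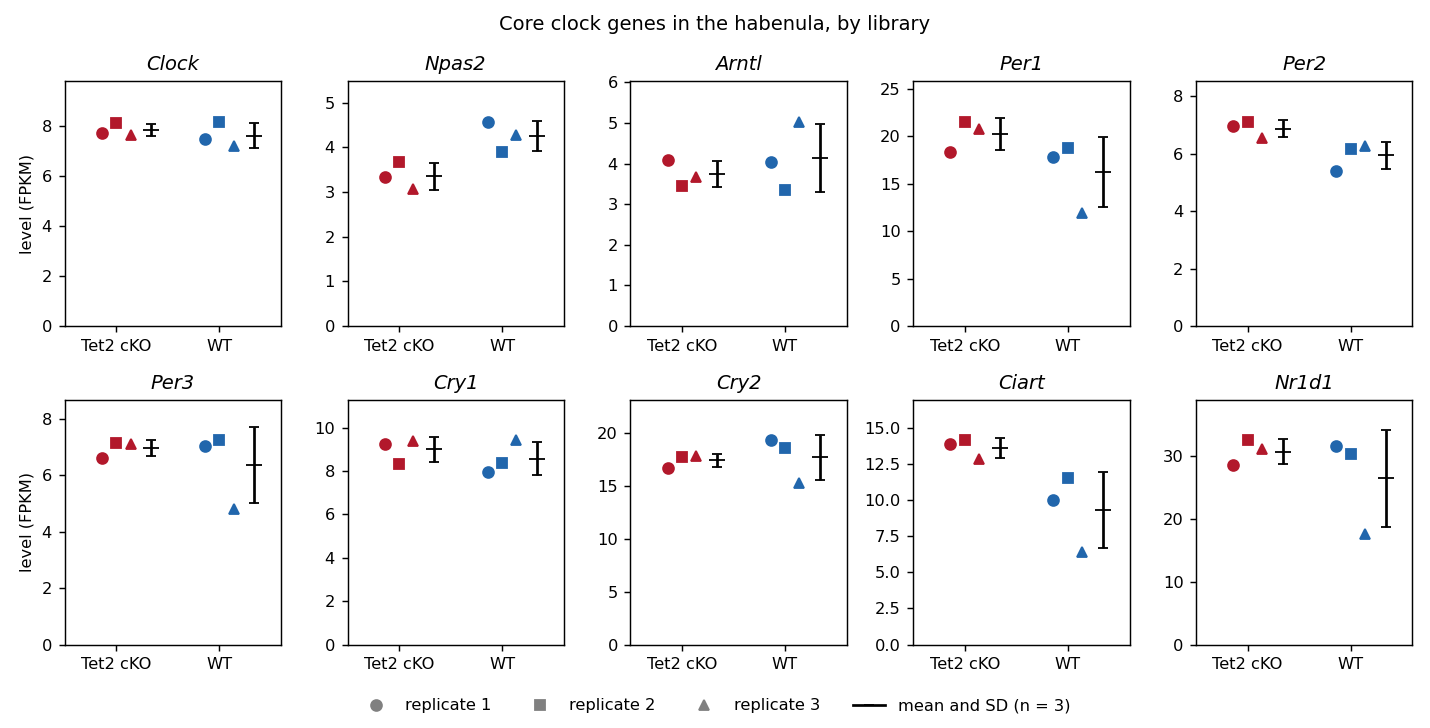
FPKM of each clock gene in every library, on a linear y axis from 0, with libraries labelled Tet2 cKO at the left of each panel and WT at the right; marker shapes give the replicate and bars give the mean and SD (n = 3). Ciart and Per2 lie higher and Npas2 lies lower in all 3 libraries labelled Tet2 cKO than in any WT library, and WT replicate 3 is the lowest point for Per1, Per3, Ciart and Nr1d1.

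The comparison of the labels asks whether the clock of the habenula differs after deletion of Tet2. Ciart and Per2 were higher and Npas2 was lower in every library labelled Tet2 cKO than in every WT library, and the other 7 genes overlapped between the labels. The edgeR quasi-likelihood test with Benjamini-Hochberg adjustment called 0 of the 10 genes, and 0 of 14539 genes tested in all (0%). At an unadjusted p under 0.05 it held 3 of the 10 genes, Ciart and Per2 higher and Npas2 lower, against 374 of 14539 genes tested (2.57%). DESeq2 called 4 genes of 14539 (0.0275%), and none of the 10. Separate groups, as in 3 of the 10 genes, were found in 6.8% of tested genes. With 3 libraries against 3, the exact two-sided permutation test cannot give a p under 0.1.

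Clock and Npas2 are paralogues that each pair with BMAL1. Clock stood at 7.72, 8.09 and 7.63 FPKM in libraries labelled Tet2 cKO and at 7.45, 8.15 and 7.18 FPKM in WT. The groups overlapped, and the log2 difference was 0.03 (95% interval -0.13 to 0.20). Clock was the steadiest of the 10, with a coefficient of variation of 3.74% under the Tet2 cKO label and 6.11% in WT. Npas2 stood at 3.33, 3.67 and 3.07 FPKM in libraries labelled Tet2 cKO and at 4.57, 3.90 and 4.28 FPKM in WT. Its highest library labelled Tet2 cKO lay below its lowest WT library. The gap between these nearest libraries was small, and counting error alone for Npas2 is 5.14% to 6.17%. The log2 difference was -0.35 (SE 0.111), or 0.784-fold (edgeR p = 0.0105, adjusted p = 0.9999; exact permutation p = 0.1). The ratio of Clock to Npas2 in FPKM was accordingly 2.32, 2.20 and 2.49 in libraries labelled Tet2 cKO, against 1.63, 2.09 and 1.68 in WT.

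Arntl, the partner of both, stood at 4.08, 3.46 and 3.68 FPKM in libraries labelled Tet2 cKO and at 4.03, 3.36 and 5.03 FPKM in WT. WT replicate 3 was the highest of the 6 libraries and WT replicate 2 the lowest, so the groups overlapped. The log2 difference was -0.16 (SE 0.140) with all libraries and 0.02 (SE 0.110) without WT replicate 3.

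Among the period genes, whose proteins carry the negative feedback, Per1 stood at 18.31, 21.49 and 20.79 FPKM in libraries labelled Tet2 cKO and at 17.84, 18.73 and 11.94 FPKM in WT. Tet2 cKO replicate 1 lay below WT replicate 2, so the groups overlapped, and WT replicate 3 was far below the rest. The log2 difference of Per1 was 0.31 (SE 0.149; edgeR p = 0.0623, adjusted p = 0.9999; exact permutation p = 0.2), and 0.15 (SE 0.0811) without WT replicate 3. Per2 stood at 6.96, 7.11 and 6.55 FPKM in libraries labelled Tet2 cKO and at 5.40, 6.16 and 6.27 FPKM in WT. The groups did not overlap, although the gap between the nearest libraries was small. The log2 difference of Per2 was 0.20 (SE 0.0881), or 1.15-fold (edgeR p = 0.0457, adjusted p = 0.9999; exact permutation p = 0.1), and WT replicate 3 was the highest WT library for it.

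Per3, the third period gene, stood at 6.62, 7.13 and 7.10 FPKM in libraries labelled Tet2 cKO and at 7.02, 7.23 and 4.80 FPKM in WT. All libraries but WT replicate 3 lay close together. The log2 difference was 0.12 (SE 0.136) with all libraries and -0.03 (SE 0.0723) without that library, so its sign rested on 1 library.

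The cryptochromes Cry1 and Cry2 bind the BMAL1 dimer as partners of the PER proteins. Cry1 stood at 9.25, 8.34 and 9.41 FPKM in libraries labelled Tet2 cKO and at 7.94, 8.37 and 9.42 FPKM in WT, a log2 difference of 0.06 (SE 0.0953). Cry2 stood at 16.65, 17.74 and 17.82 FPKM in libraries labelled Tet2 cKO and at 19.30, 18.56 and 15.29 FPKM in WT. The log2 difference of Cry2 was -0.03 (SE 0.0926), and exons of Cry2 share 295 bases (4.67%) with D930015M05Rik on the opposite strand, which had 24 to 37 counts under the Tet2 cKO label and 29 to 38 in WT. Both cryptochromes overlapped between the labels. Without WT replicate 3 they differed by 0.14 (SE 0.0935) and -0.12 (SE 0.0687), and the 95% intervals of both included 0.

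Ciart had the largest difference of the 10 genes. It stood at 13.90, 14.17 and 12.89 FPKM in libraries labelled Tet2 cKO and at 10.02, 11.57 and 6.43 FPKM in WT. The groups were apart, with the spread of the 3 WT libraries far wider than that of the 3 libraries labelled Tet2 cKO. The log2 difference was 0.54 (SE 0.176, 95% interval 0.15 to 0.93), or 1.46-fold (edgeR p = 0.0118, adjusted p = 0.9999; exact permutation p = 0.1). Ciart was 97th by unadjusted p among the 14539 genes. Without WT replicate 3 the log2 difference was 0.34 (SE 0.0992, edgeR adjusted p = 0.559). With no filter on low values, Ciart passed (edgeR adjusted p = 0.0154), as did 49 of 31689 genes (0.155%). The adjusted p lay between 0.0154 and 1 over the 15 alternatives.

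Nr1d1 stood at 28.56, 32.54 and 31.10 FPKM in libraries labelled Tet2 cKO and at 31.57, 30.40 and 17.62 FPKM in WT. All but WT replicate 3 lay within a narrow range, and the groups overlapped. The log2 difference was 0.21 (SE 0.182) with all libraries and -0.01 (SE 0.0775) without WT replicate 3. Nr1d1 and the thyroid hormone receptor gene Thra lie on opposite strands with overlapping ends, sharing 263 bases, or 8.55% of the exonic bases of Nr1d1. No source used here states whether counting used strand, so reads of that overlap cannot be told apart. Thra stood at 62.4, 71.2 and 74.8 FPKM in libraries labelled Tet2 cKO and at 64.1, 67.0 and 70.6 FPKM in WT, where WT replicate 3 was the highest.

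**Figure D3:**
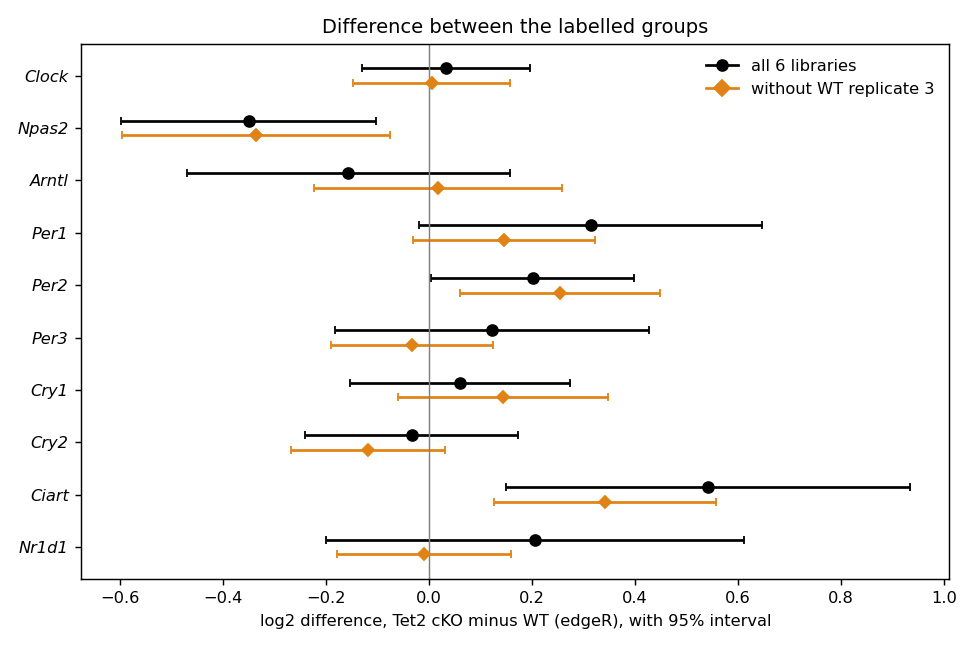
Log2 difference of each clock gene, Tet2 cKO minus WT, on the x axis with its 95% interval from edgeR, for all 6 libraries (black circles) and without WT replicate 3 (orange diamonds). The intervals of Ciart, Per2 and Npas2 exclude 0 both ways before adjustment, and Nr1d1, Per3 and Arntl move to near 0 without that library.

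Over the 10 genes, 7 were higher and 3 lower under the Tet2 cKO label, with a median log2 difference of 0.09, beside 49.1% higher and a median of -0.0021 over all tested genes. Without WT replicate 3 there were 6 higher and the median was 0.011, and without WT replicate 2 the median was 0.15. Without WT replicate 3 the same 3 genes, Ciart and Per2 higher and Npas2 lower, held an unadjusted edgeR p under 0.05, against 865 of 14539 genes (5.95%). None of them passed after adjustment, where 0.0206% of tested genes did. Their differences were then 0.34, 0.25 and -0.34 on the log2 scale.

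WT replicate 3 was an extreme library for most of the 10 genes. It was the lowest of the 6 libraries for Per1, Per3, Cry2, Ciart, Clock and Nr1d1 (6 of 10, beside 27.2% of tested genes). It was the highest for Cry1 and Arntl (2 of 10, beside 27.1%). Relative to the mean of WT replicates 1 and 2 on CPM (counts scaled to normalised library size), WT replicate 3 was at 0.571 times for Nr1d1, 0.598 for Ciart, 0.655 for Per1 and 0.677 for Per3. It was at 1.37 times for Arntl and 1.16 times for Cry1. Clock, Npas2 and Per2 lay nearer, at 0.924, 1.01 and 1.09 times. As many as 3.35% of all tested genes were shifted as far down as Nr1d1 in that library and 3.89% as far as Ciart, while 93.7% of genes had a shift no greater than that of Arntl.

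The coefficient of variation of the 10 genes had a median of 5.57% under the Tet2 cKO label and 16.3% in WT. Over all tested genes the medians were 7.71% and 9.80%. Nr1d1 varied by 7.19% under the Tet2 cKO label and 29.0% in WT, and Ciart by 5.33% and 27.9%. Per1 varied by 8.85% and 22.6%, Per3 by 4.68% and 21.0%, and Arntl by 7.89% and 20.6%. A WT coefficient at least as large as that of Nr1d1 was found in 8.83% of tested genes.

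The ratio of Nr1d1 to Arntl in FPKM was 7.0, 9.40 and 8.45 under the Tet2 cKO label, and 7.83, 9.05 and 3.50 in WT. That ratio overlapped between the labels and was lowest in WT replicate 3.

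**Figure D4:**
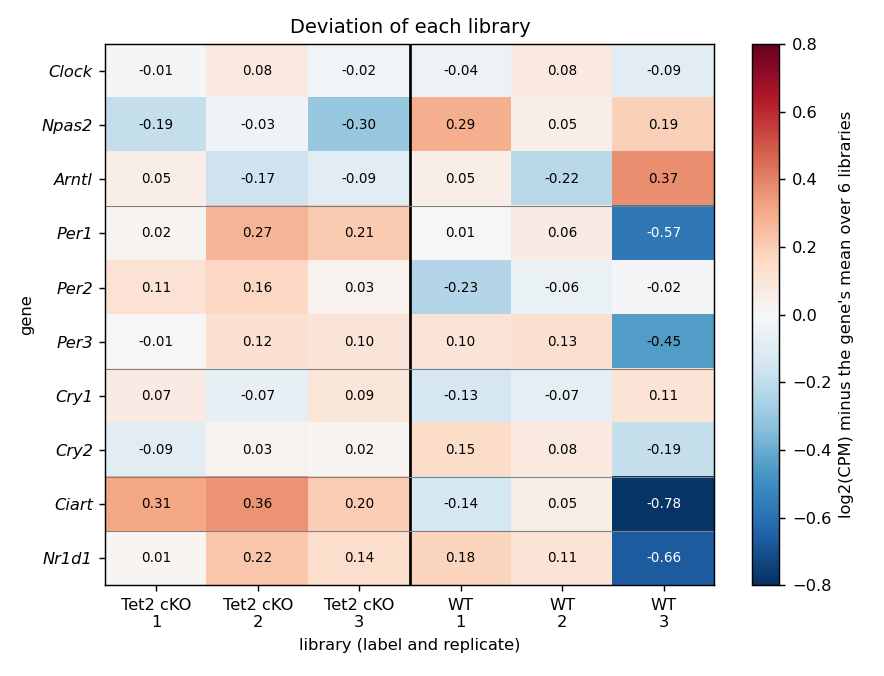
Log2 CPM of each clock gene in each library minus the mean of that gene over the 6 libraries, with libraries labelled Tet2 cKO at the left and WT at the right. WT replicate 3 is lowest for Ciart (-0.78), Nr1d1 (-0.66), Per1 (-0.57) and Per3 (-0.45) and highest for Arntl (0.37), while Npas2 is below its mean in all 3 libraries labelled Tet2 cKO.

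Clock factors outside the 10 genes also included several that were lowest in WT replicate 3. Of 11 such transcription factors, 11 were tested, 7 were higher and 4 lower under the Tet2 cKO label, none held an unadjusted p under 0.05, and the median log2 difference was 0.09. Leaving out Tet2 cKO replicate 2 gave a median of 0.021, and leaving out WT replicate 3 gave 0.050. WT replicate 3 was the lowest library for 6 of the 11, beside 27.2% of all tested genes. That was not particular to these factors, since it was also lowest for 9 of the 14 clock protein regulators below. Dbp, a D-box activator driven by E-boxes, stood at 30.98, 32.24 and 30.53 FPKM in libraries labelled Tet2 cKO and at 29.84, 27.87 and 16.51 FPKM in WT, a log2 difference of 0.33 (SE 0.178). The groups did not overlap, and WT replicate 3 again stood far below the rest, without which the log2 difference of Dbp was 0.12 (SE 0.0723). Hlf, a relative of Dbp, differed by 0.14 (SE 0.0682) with separate groups, and by 0.098 (SE 0.0762) without Tet2 cKO replicate 2. Dbp and Hlf were the 2 of the 11 with separate groups, beside 485 of 14539 tested genes that were higher with separate groups. Nr1d2, which encodes REV-ERB beta, differed by 0.17 (SE 0.0945) with overlapping groups, and by 0.075 (SE 0.0655) without WT replicate 3.

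A further list, here called clock protein regulators, held mostly genes for the stability and modification of clock proteins. Of its 14 genes, 14 were tested, 9 were higher and 5 lower. WT replicate 3 was the lowest library for 9 of the 14 and the highest for 0. None held an unadjusted edgeR p under 0.05, and the median log2 difference was 0.01. The sign of that median was not stable, at -0.043 without WT replicate 3 (4 higher and 10 lower) and -0.018 with library weights. The 3 with the smallest p were the deubiquitinase gene Usp2 at -0.08 (SE 0.0929), the kinase gene Gsk3b at 0.09 (SE 0.110) and Timeless at -0.09 (SE 0.143). Leaving out WT replicate 3 put Gsk3b at -0.016 and Usp2 at -0.16, and without WT replicate 1 Usp2 was at -0.0063.

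Activity-induced and glucocorticoid-induced genes, which share inducing signals with Per1, were mostly higher under the Tet2 cKO label. Of 12 immediate early genes 10 were tested, 7 were higher and 3 lower, and 4 held an unadjusted p under 0.05, all higher, beside 0.894% of tested genes. Their summed level was 98.3, 105 and 108 FPKM under the Tet2 cKO label, against 88.7, 90.3 and 75.6 FPKM in WT. Fos, a subunit of the AP-1 transcription factor, stood at 22.82, 27.79 and 27.20 FPKM in libraries labelled Tet2 cKO and at 20.65, 19.58 and 17.28 FPKM in WT. Nr4a1 and Egr1, also early transcription factors, differed by 0.35 (SE 0.114) and 0.43 (SE 0.156), and without WT replicate 3 by 0.40 (SE 0.119) and 0.25 (SE 0.0796).

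Of 10 glucocorticoid-induced genes all 10 were tested and 10 were higher, by 0.0020 to 0.55 on the log2 scale. Of these, 5 held an unadjusted edgeR p under 0.05, beside 0.894% of tested genes that were higher at that threshold. The summed level of the 10 was 352, 391 and 361 FPKM in libraries labelled Tet2 cKO, against 283, 329 and 268 FPKM in WT. Ddit4, an inhibitor of mTORC1, differed by 0.50 (SE 0.113), Tsc22d3 (the leucine zipper protein GILZ) by 0.25 (SE 0.0806) and Errfi1 (a feedback inhibitor of the EGF receptor) by 0.25 (SE 0.0835). No gene of either group passed after adjustment in the reported test. With no filter on low values, Ddit4 (edgeR adjusted p = 0.00194), Egr1 (0.0197) and Fos (0.0228) passed, and Nr4a1 (0.367) did not. In that setting 49 of 31689 genes passed (0.155%). The summed levels of both groups were lowest in WT replicate 3, as were 6 of 10 immediate early genes and 8 of 10 glucocorticoid-induced genes. Without that library 8 of 10 immediate early genes and 7 of 10 glucocorticoid-induced genes were higher, with medians of 0.16 and 0.24, against 0.23 and 0.25 with all libraries. The median of the immediate early genes was 0.13 without Tet2 cKO replicate 3 and 0.40 without WT replicate 2. Their part in the values of Per1, Per2 and Ciart was not tested.

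Markers of cells around the habenula also differed with the labels or in WT replicate 3. All 8 choroid plexus markers were lower under the Tet2 cKO label, with summed levels of 168 to 820 FPKM there and 447 to 1392 FPKM in WT. Most of each sum was Ttr, at 158 to 799 FPKM under the Tet2 cKO label and 430 to 1347 FPKM in WT. The median of the 8 markers was -1.28, or -1.60 without WT replicate 3 and -0.77 without WT replicate 1. Of the 8, 7 held an unadjusted edgeR p under 0.05 and 1 had separate groups. All 6 tested ependymal markers of 7 were lower, with summed levels of 36.0 to 44.8 FPKM under the Tet2 cKO label and 48.4 to 61.1 FPKM in WT, and 6 of 6 were highest in WT replicate 3. Their median was -0.45, and -0.33 without that library. Of the 6, 5 held an unadjusted edgeR p under 0.05 and 5 had separate groups. Over all 14539 tested genes, 244 were lower at that p, and 503 were lower with separate groups. Habenula neuron markers had summed levels of 410 to 496 FPKM under the Tet2 cKO label and 455 to 516 FPKM in WT. Most of each sum was Calb2, which was highest in WT replicate 3 (332 of 455 FPKM), where the other 8 markers were lowest. The mean log2(CPM + 1) of the 9 markers was 6.88, 6.55 and 6.87 under the Tet2 cKO label. In WT it was 6.86, 7.06 and 6.24. Of the 9, 5 were higher, with a median log2 difference of 0.03. The direction of these markers turned without WT replicate 3, with 8 of 9 lower and a median of -0.17. Of these, 2 held an unadjusted edgeR p under 0.05, beside 446 of 14539 tested genes that were lower at that threshold. Library weights gave a median of -0.15 for the habenula markers. Astrocyte markers were higher in 6 of 8, at 573 to 592 FPKM under the Tet2 cKO label and 557 to 563 FPKM in WT, with a median of 0.13, and 0.091 without WT replicate 3. The largest part of each sum was Aldoc, at 304 FPKM in WT replicate 3 and 252 and 253 FPKM in the other WT libraries. The mean log2(CPM + 1) of the 8 markers was 8.19, 8.23 and 8.17 under the Tet2 cKO label. In WT it was 8.13, 8.10 and 7.95, lowest in WT replicate 3. None of the markers in these 4 lists was at 0 in any library. Thalamus, hippocampus, oligodendrocyte and microglia markers had median log2 differences of -0.04, -0.11, 0.11 and 0.02. Without WT replicate 3 these were 0.011, -0.16, 0.075 and -0.0084. Of the 7 thalamus markers, 4 were highest and 0 lowest in WT replicate 3, unlike the habenula markers. The mean log2(CPM + 1) of the thalamus markers was 7.76, 7.78 and 7.64 under the Tet2 cKO label, and 7.76, 7.68 and 7.84 in WT. Pineal markers summed to only 4.98 to 5.39 FPKM under the Tet2 cKO label and 5.31 to 7.09 FPKM in WT, and 4 of 6 were at 0 in at least 1 library. Most of each pineal sum was Otx2, which is also among the choroid plexus markers. It stood at 3.87 to 4.60 FPKM under the Tet2 cKO label and 4.38 to 6.52 FPKM in WT. In bulk tissue, fewer cells of a type and less RNA per cell cannot be told apart, and the part of these cells in the clock gene values was not tested.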

How the data were processed

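Total RNA of the habenula was sequenced in 3 libraries labelled Tet2 cKO and 3 WT libraries. The deposited table holds raw counts per gene, per the file headers and the values. It also holds FPKM made by the authors, which equal the count scaled by exonic size and library total within 0.0051 (100% of values, each library). The submitters' processing notes name build mm10, the aligner HISAT2 2.0.1, the trimmer cutadapt 1.9.1, SAMtools 0.1.19 and FastQC 0.10.1, and for the counter, its annotation and its use of strand nothing is stated in the sources used here. Table coordinates matched GENCODE mouse release 21 (GRCm38) in chromosome and width for 51479 of 52083 shared identifiers, but in start and end for only 1494, and are not printed. Exon overlaps come from that release and promoter windows from RefSeq.

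Counts were tested with edgeR 4.0.16 (quasi-likelihood, TMM, two-sided, no covariate) in R 4.3.3 over 14539 genes averaging 1 FPKM or more, which held at least 99.1% of each library's counts. P-values were adjusted over all tested genes at a threshold of 0.05. Permutation tests used log2(CPM + 1) and all 20 divisions of the libraries. DESeq2 1.42.0, limma 3.58.1 on log2(FPKM + 1) and log2(FPKM + 0.1), limma with library weights, other scalings and filters, each library left out, and replicate number as a block were alternatives. Fits were tested on simulated data. The clock genes and all lists were chosen with earlier results of these data known. Beside the 10 genes and Tet2, up to 3 genes per list were named by smallest p, and Gpr151 as a tissue check. D930015M05Rik and Thra were named for their exon overlap, and Ttr, Calb2, Otx2, Aldoc and Mt2 for their part in a summed level. Skp1a of the regulators was matched as Skp1. The 95% intervals are those of the edgeR fit and include the spread between libraries, while the counting errors given are of the counts alone.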

Additional observations from a re-analysis of the deposited data

How the results depend on the processing

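Of the 10 clock genes, 0 passed in the reported test and under all alternatives but one. With no filter on low values 1 passed (Ciart), and 49 of all genes did. Over all genes DESeq2 called 4, a filter at 0.5 FPKM called 2 and limma with library weights called 2. Leaving out each library gave 0 to 3 calls over all genes and none among the 10. Among the 10 genes and Gsk3b, signs changed only without single libraries, over ranges of -0.034 to 0.22 for Per3, -0.12 to 0.035 for Cry2, -0.29 to 0.017 for Arntl, -0.0093 to 0.35 for Nr1d1 and -0.016 to 0.16 for Gsk3b. The median of the 10 genes lay between 0.011 and 0.15 over all alternatives. With library weights the medians of the clock protein regulators, habenula and microglia markers turned to -0.018, -0.15 and -0.0030, against 0.014, 0.032 and 0.023. Ciart lay between 0.34 and 0.72, Per2 between 0.14 and 0.25 and Npas2 between -0.42 and -0.27. Without WT replicate 3, 865 genes held an unadjusted p under 0.05, and with library weights 962, against 374. Why no filter or library weights moved these counts was not tested.

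The deviations of same-numbered libraries had correlations of -0.041, 0.176 and -0.102. With 3 libraries per group these cannot show whether the numbers mark pairs, and no source used here says that they do. With replicate number as a block, 0 genes passed and 346 held an unadjusted p under 0.05, and the median of the 10 clock genes was 0.10.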
